A study of Mus musculus with 18 samples.

Results

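The let-7 family with mir-98 was read as 9 precursor entries of a small RNA count table (mmu-let-7a, mmu-let-7b, mmu-let-7c, mmu-let-7d, mmu-let-7f, mmu-let-7g, mmu-let-7i, mmu-let-7j and mmu-mir-98, written here without the prefix), chosen by name out of 1006 miRNA precursors. All 9 were among the 273 precursors abundant enough to be tested. The cells were Baf3 cells, pro-B cells of the mouse kept in interleukin-3, which here carried fluorescent reporters for altered miR-15a and miR-16. All of them were transduced with Cas9 and a guide RNA, so the controls were edited too. The guides targeted Rag1 (control, an antigen receptor recombinase gene), Safb1 with Safb2 (called SAFB here), or Erh. SAFB and ERH knockout populations were polyclonal and had been sorted for derepression of the miR-15a reporter, then regrown. Whether control cells went through such a sort is not given in the sources used here. With 2 guides per genotype and 3 libraries per guide, each genotype had 6 libraries, and every population was sampled once in each of 3 numbered batches. The libraries of a population are not described as separate edits, so the p-values measure the spread between these libraries.

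let-7 miRNAs repress growth and stem cell genes such as Lin28a, Hmga2 and Ras genes, and rise as cells differentiate. Each is cut from a hairpin in a primary transcript by the Microprocessor (Drosha with Dgcr8), then by Dicer. SAFB proteins and ERH are partners of the Microprocessor that help it to cut poor hairpins lying beside good ones. Most let-7 hairpins lie near another miRNA hairpin, and mir-98 sits beside a let-7f hairpin inside the Huwe1 gene. The clustered members can thus be set against the solitary let-7g and let-7i. Whether a let-7 cluster holds a poor hairpin was not tested.

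The mature sequences are shown because the members differ at so few bases that reads could be assigned to the wrong entry. They are the mature products listed by RefSeq for GRCm38.p6, matched for 9 of 9 entries, with the seed (bases 2 to 8, which pair with targets) in capitals.
let-7a: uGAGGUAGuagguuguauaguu
let-7b: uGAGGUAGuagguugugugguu
let-7c: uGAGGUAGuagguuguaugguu
let-7d: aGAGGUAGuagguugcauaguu
let-7f: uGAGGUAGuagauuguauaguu
let-7g: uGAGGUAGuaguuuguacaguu
let-7i: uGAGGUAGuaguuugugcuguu
mir-98: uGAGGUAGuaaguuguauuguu
let-7j: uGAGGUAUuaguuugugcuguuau
The seed GAGGUAG was shared by 8 members, and 11 of the 1679 mature miRNAs in the same table carried it. let-7j had the seed GAGGUAU instead. Counted from 1 at the 5′ end, let-7j differed from let-7i only by G8U over the 22 bases compared. let-7a differed from let-7f only by G12A and from let-7c only by A19G, and let-7b differed from let-7c only by G17A. These 4 of 36 pairs were the ones a single base apart. let-7f and mir-98 differed at 3 bases, G11A, A12G and A19U. How reads that matched several precursors were assigned is not given in the sources used here.

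The 9 entries were matched by name to 12 hairpin genes of GRCm38 (GENCODE M21), a build that may differ from the authors'. Mirlet7a-1 (chr13:48538179-48538272), Mirlet7f-1 (chr13:48537829-48537917) and Mirlet7d (chr13:48536012-48536114) lay on the minus strand in an exon of the noncoding 6720427I07Rik, 261 and 1714 bp apart. Mirlet7c-2 (chr15:85706603-85706697) and Mirlet7b (chr15:85707319-85707403) lay 621 bp apart in an exon of the noncoding Lncppara, on the plus strand. Mirlet7f-2 (chrX:151912346-151912428) and Mir98 (chrX:151913214-151913321) lay 785 bp apart on the plus strand, in an intron of Huwe1, a ubiquitin ligase gene. The remaining let-7a copy, Mirlet7a-2 (chr9:41536716-41536811), had Mir100 at 5211 bp, and the remaining let-7c copy, Mirlet7c-1 (chr16:77599657-77599750), had Mir99a at 656 bp. Mirlet7g (chr9:106178840-106178927, in an intron of Wdr82), Mirlet7i (chr10:122985640-122985724, overlapping D630033A02Rik) and Mir7j (chr3:140028249-140028370, in no annotated host) had no miRNA gene within 10 kb. The entries let-7a, let-7c and let-7f were thus each taken to join a pair of gene copies, and their counts could not be divided between loci.

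**Figure D1:**
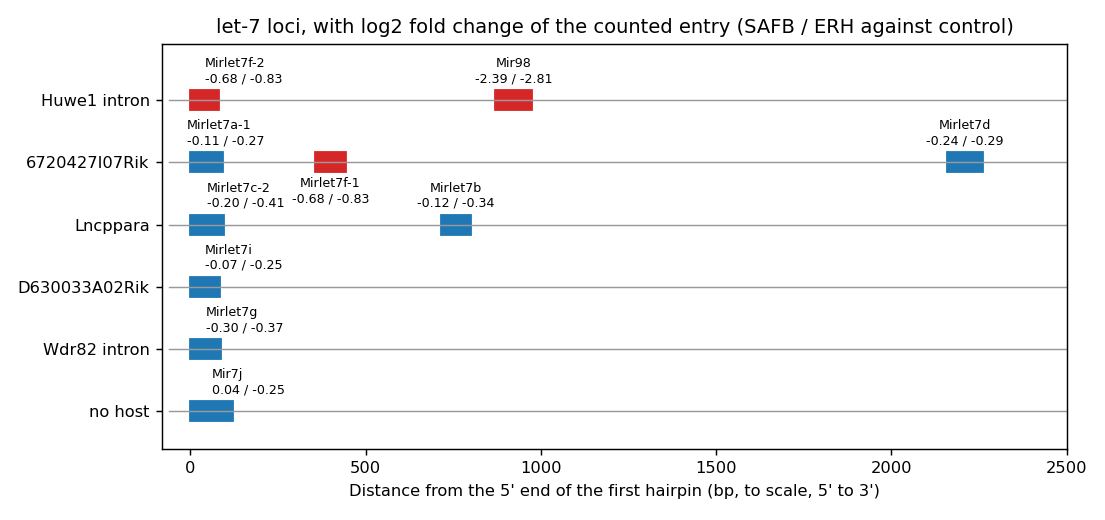
Hairpins of 6 loci to scale, as distance in bp from the 5′ end of the first hairpin, with the log2 fold change of the counted entry beside each (SAFB against control, then ERH against control, TMM scaling). The let-7f and mir-98 entries are in red, and both copies of let-7f carry the value of the shared entry; Mirlet7a-2 and Mirlet7c-1 are not drawn.

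The pair of hairpins within Huwe1 is printed with the mature miRNA in capitals, since they share an intron and the ratio of their products is among the results.
Mirlet7f-2: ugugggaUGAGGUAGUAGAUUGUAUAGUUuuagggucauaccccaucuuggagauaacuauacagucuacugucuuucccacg
Mir98: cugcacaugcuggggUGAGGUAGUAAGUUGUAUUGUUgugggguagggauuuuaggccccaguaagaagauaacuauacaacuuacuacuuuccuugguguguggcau
Folded with RNAfold, the let-7f-2 hairpin of 83 bases had a minimum free energy of -39.0 kcal/mol, or -0.470 per base, a terminal loop of 8 bases and 1 unpaired base in the mature miRNA. The mir-98 hairpin of 108 bases had -48.9 kcal/mol, or -0.453 per base, a terminal loop of 11 bases and 2 unpaired bases. The let-7j hairpin folded least tightly of the 12, at -24.6 kcal/mol over 122 bases, with 7 unpaired bases in its mature part.

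In control cells the members together took 24.1% ± 0.82 of all miRNA counts (SD, n = 6). Levels are given as CPM, counts scaled to library size with TMM factors. The order in control was let-7f (80472 ± 2878), let-7i (72800 ± 3857), let-7a (35632 ± 1622), let-7c (35083 ± 1837), let-7b (18915 ± 1286), let-7g (6557 ± 533), let-7j (6417 ± 245), let-7d (4056 ± 329) and mir-98 (1400 ± 86.4). Neighbours in that order overlapped between libraries for let-7a with let-7c and for let-7g with let-7j, and for no other neighbours. let-7f ranked as the 3rd most abundant of the 273 precursors and mir-98 as the 54th. The share of let-7i that let-7j reached was 8.82% ± 0.15. Levels of different miRNAs also differ by how well each is ligated and amplified, so the order is that of counts.

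**Figure D2:**
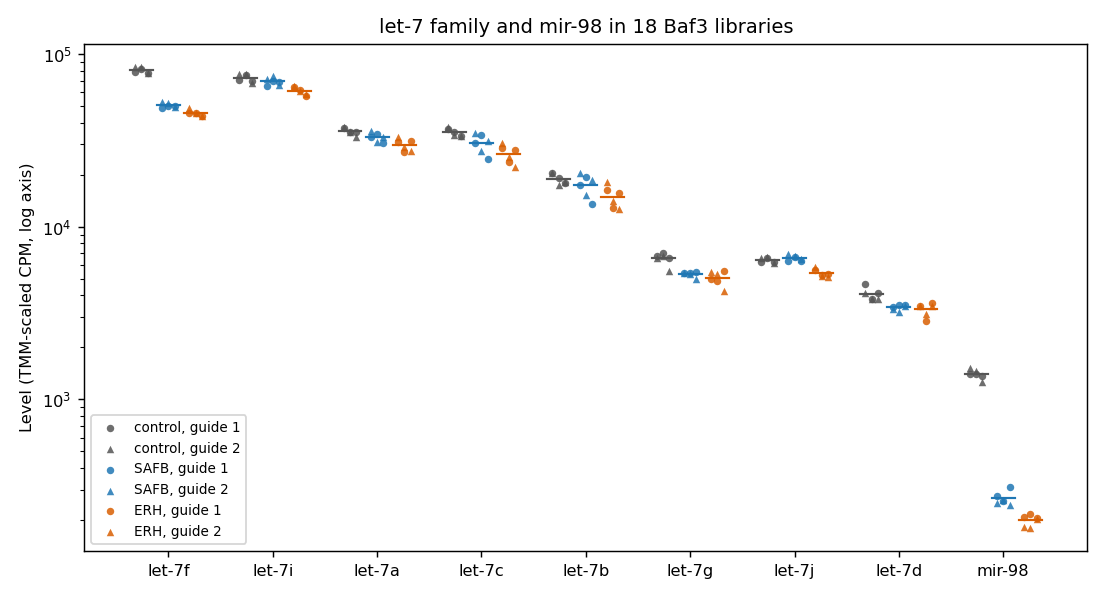
Level of each member in all 18 libraries (TMM-scaled CPM, log axis), with circles for guide 1, triangles for guide 2, points of a genotype spread by batch, and bars at the means. mir-98 and let-7f lie lower in every SAFB and ERH library than in any control library, while the 6 SAFB libraries overlap the controls for let-7a, let-7b, let-7c, let-7i and let-7j.

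The data were 2699323 to 4470073 miRNA counts per library, of which the members held 571647 to 1005956. Changes were widespread in these knockouts, so a call alone marks no miRNA as particular: 153 of 273 precursors passed an adjusted p of 0.05 in SAFB against control, 147 in ERH against control and 108 in ERH against SAFB. Scaling by library totals or by the summed spike-in counts moved all values together. The median log2 fold change of all 273 was 0.0083 for SAFB with TMM, 0.043 with library totals and -0.23 with spike-ins. For ERH it was -0.061, 0.24 and 0.23 in that order, and for ERH against SAFB 0.042, 0.31 and 0.57. The split of calls moved with it, from 84 higher and 69 lower to 44 and 58 for SAFB with spike-ins. For ERH the split went from 72 higher and 75 lower to 108 and 33 with library totals and 72 and 19 with spike-ins. For ERH against SAFB it went from 65 higher and 43 lower to 115 and 8, and to 111 and 1. Of 5 listed blood cell markers, mir-142a (145243 ± 10572 CPM), mir-223 (9611 ± 2646), mir-181a (3114 ± 453) and mir-155 (1754 ± 103) were abundant in control. The fifth, mir-150, was at 19.3 ± 3.96 CPM in control. With TMM, mir-223 (log2 fold change 0.86) and mir-181a (0.58) were higher and mir-150 (-1.96) lower in SAFB, while mir-142a (-0.062) and mir-155 (-0.12) did not pass. In ERH mir-181a (0.40) was higher, mir-142a (-0.23), mir-155 (-0.38) and mir-150 (-1.06) were lower, and mir-223 (-0.061) did not pass. Under library totals and spike-ins mir-142a stood at 0.073 and 0.047 in ERH and neither it nor mir-155 was called there; with spike-ins mir-181a in SAFB and mir-150 in ERH were not called either. The 15 listed markers of other cell types summed to 171 to 230 CPM in control, 270 to 358 in SAFB and 415 to 570 in ERH, with mir-206 at 0 throughout and mir-133a and mir-124 also at 0 in control. Of 8 tested, mir-9, a neural miRNA, was higher in both knockouts under all 3 scalings, at 9.06 ± 4.58, 65.9 ± 20.7 and 260 ± 64.8 CPM. With TMM mir-143, mir-200a and mir-200c were also higher in SAFB, mir-122 was higher in ERH, and mir-200a and mir-200c were lower in ERH than in SAFB. The 5 epithelial markers summed to 140 to 194 CPM in control, 183 to 212 in SAFB and 143 to 175 in ERH. The part of these markers in the changes of the members was not tested.

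mir-98 and let-7f were lower in both knockouts, with larger changes than any other member. In such bulk RNA, fewer cells with a miRNA and less of it per cell cannot be told apart. mir-98, which shares the let-7 seed, fell by 2.39 (SE 0.078) on the log2 scale in SAFB and fell by 2.81 (SE 0.080) in ERH, 5.23-fold and 7.01-fold lower. let-7f, the most abundant member in control, fell by 0.68 (SE 0.041) in SAFB and fell by 0.83 (SE 0.042) in ERH, 1.60-fold and 1.78-fold lower. Among the 7 other members the log2 fold change lay between -0.30 and 0.040 in SAFB and between -0.41 and -0.25 in ERH. The comparisons share the control libraries and are not independent of each other.

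mir-98 was at 1257 CPM in the lowest control library, 1400 in the median and 1510 in the highest. In SAFB libraries the lowest, median and highest were 245, 261 and 313 CPM, and in ERH libraries 181, 206 and 216 CPM. No library of either knockout reached the controls, and on this TMM scale the highest ERH library lay below the lowest SAFB library. Both differences from control passed (adjusted p = 1.2e-17 in SAFB, 1.5e-18 in ERH). The change was the 9th lowest of 273 in SAFB and the 3rd lowest in ERH. Between single guide populations it ran from -2.48 to -2.30 in SAFB and from -2.90 to -2.72 in ERH, called in 4 of 4 pairs each. Within batches it ran from -2.46 to -2.24 and from -2.90 to -2.67. The counts behind these levels were 3865 to 5309 in control, 906 to 1084 in SAFB and 592 to 812 in ERH libraries.

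let-7f ran from 77542 over a median of 80076 to 83920 CPM in control libraries. The values were 48671, 49908 and 52337 CPM in SAFB, and 43543, 45284 and 48392 CPM in ERH. Again each knockout lay wholly below the controls. ERH lay wholly below SAFB on this TMM scale, whereas with library totals let-7f was called higher in ERH than in SAFB (0.11, adjusted p = 0.0078). Both differences passed (adjusted p = 1.7e-12 in SAFB, 3.8e-14 in ERH). All 4 guide pairs were called in each knockout, between -0.72 and -0.63 for SAFB and between -0.86 and -0.79 for ERH. With the counts of let-7a and let-7c summed with it, the change was -0.35 in SAFB and -0.56 in ERH, still called; let-7g, as near in sequence to let-7f as let-7c is, was not part of that sum. let-7f summed with mir-98 gave -0.63 and -0.81.

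Over the whole family, 5 of 9 members were lower in SAFB, beside 25.3% of all tested precursors that were lower and 56% called in either direction, and 4 did not pass. The SAFB count was 3 with spike-ins and 3 without control replicate 1 or 3, each beside 21.2% of all tested lower. It was 2 without the control guide 1 or SAFB guide 2 population, beside 16.8% and 14.7% lower, and without SAFB guide 1 only mir-98 and let-7f were lower, beside 17.9%. All 6 SAFB libraries lay below the 6 controls for 4 of 9 members, against 17.2% of all tested. The members' median log2 fold change was -0.20, beside 0.0083 for all tested. In ERH, 9 of 9 members were lower, beside 27.5% of all tested lower and 53.8% called, with a median of -0.34 beside -0.061. All 6 ERH libraries lay below the controls for 8 of 9, against 17.9% of all tested; let-7b overlapped. With library totals or spike-ins, only mir-98 and let-7f were called lower in ERH, beside 12.1% and 6.96% of all tested, and let-7a, let-7d, let-7i and let-7j were slightly above 0. Relative to the median of all tested precursors with TMM, 9 of 9 members lay lower in ERH and 8 of 9 in SAFB. Since a scaling shifts the members and that median together, this measure says nothing on which scaling to prefer.

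**Figure D3:**
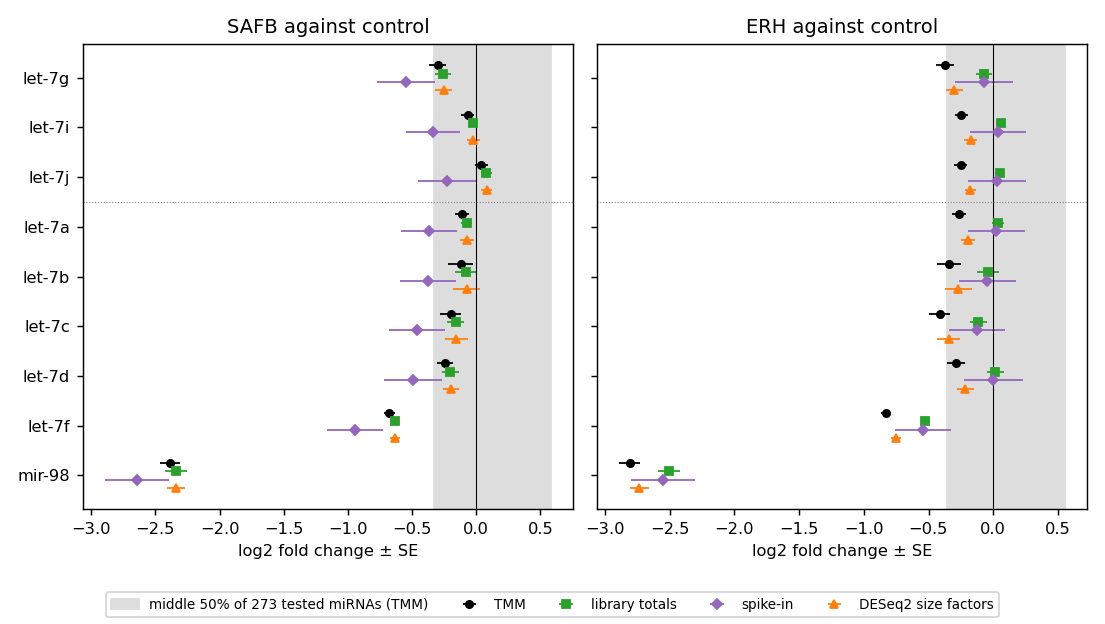
Log2 fold change of each member with its standard error, SAFB against control (left) and ERH against control (right), under 4 scalings. The solitary let-7g and let-7i, and let-7j, are above the dotted line. The grey band holds the middle 50% of the 273 precursors tested. mir-98 and let-7f lie left of 0 under each scaling, whereas let-7a, let-7d, let-7i and let-7j cross 0 in ERH with library totals and spike-ins.

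The solitary members changed by less than let-7f and mir-98, as did the other members. With TMM, let-7g (-0.30) fell by more in SAFB than the clustered let-7a (-0.11), let-7b (-0.12), let-7c (-0.20) and let-7d (-0.24). In ERH let-7g (-0.37) fell by more than let-7a (-0.27), let-7b (-0.34) and let-7d (-0.29), but by less than let-7c (-0.41). let-7i (-0.067 and -0.25) changed by less than each of them. These differences between members were not tested. let-7i, cut from a hairpin with no miRNA neighbour, had a lowest, median and highest level of 67763, 73020 and 76657 CPM in control and 65557, 69223 and 74949 CPM in SAFB, which overlapped. Its log2 fold change was -0.067 (SE 0.049, adjusted p = 0.25) and changed sign in 9 of 23 other settings, among them its sum with let-7j. In ERH libraries it was at 57356, 61515 and 65120 CPM, below all controls. The ERH change was -0.25 (SE 0.049, adjusted p = 1.4e-04) with TMM, and 0.058 and 0.037, neither called, with library totals and spike-ins.

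let-7g, transcribed within Wdr82, had 5529, 6675 and 7084 CPM in control, 4990, 5378 and 5457 in SAFB, and 4219, 5159 and 5503 in ERH. It fell by 0.30 (SE 0.067, adjusted p = 0.00061) in SAFB and fell by 0.37 (SE 0.067, adjusted p = 4.6e-05) in ERH. Its SAFB call was lost when the control guide 1, SAFB guide 1 or SAFB guide 2 population was left out, at -0.16, -0.21 and -0.17 (adjusted p = 0.12, 0.057 and 0.12). Its ERH call was lost with library totals (-0.071) and spike-ins (-0.070).

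let-7j, which carries the altered seed, was at 6138, 6419 and 6705 CPM in control and 6329, 6572 and 6990 CPM in SAFB. The SAFB change of 0.040 (SE 0.051) did not pass (adjusted p = 0.52), but let-7j was called higher in SAFB, at 0.19 (adjusted p = 0.019), when the SAFB guide 1 population was left out. The ERH libraries lay below the controls at 5124, 5288 and 5861 CPM. The share of let-7j in let-7i counts was 9.50% ± 0.31 in SAFB and 8.80% ± 0.33 in ERH, with overlap to the control value. With let-7i and let-7j summed, as they differ at G8U only, the change was 0.0056 in SAFB and -0.21 in ERH.

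Among the other clustered members, let-7d fell by 0.24 (SE 0.066, adjusted p = 0.0030) in SAFB and let-7c fell by 0.20 (SE 0.082, adjusted p = 0.042). let-7a stood at -0.11 (SE 0.056, adjusted p = 0.089) and let-7b at -0.12 (SE 0.096, adjusted p = 0.30). The let-7c call was lost in 17 of 22 other settings, 11 of which left out a single library (-0.17 to -0.12), and was kept without SAFB replicate 2. The let-7d call was lost without control replicate 1 (-0.13, adjusted p = 0.11) or control replicate 3 (-0.17, adjusted p = 0.058), and in 4 further settings. In ERH with TMM the changes were -0.27 for let-7a, -0.34 for let-7b, -0.41 for let-7c and -0.29 for let-7d, and all 4 were called. Without the control guide 1 population the ERH calls of let-7b (-0.27, adjusted p = 0.090) and let-7d (-0.18, adjusted p = 0.092) were lost, and each was called in 2 of 4 guide pairs.

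Ratios of counts within a library need no scaling between libraries. The ratio of mir-98 to let-7f compares the neighbours within Huwe1, though the other let-7f copy may add to its denominator. mir-98 reached 1.74% ± 0.063 of let-7f counts in control, 0.532% ± 0.055 in SAFB and 0.441% ± 0.043 in ERH. On the log2 scale the ratio was -5.95 in the lowest control library, -5.83 in the median and -5.80 in the highest. The SAFB values were -7.70, -7.61 and -7.32, and the ERH values -8.06, -7.75 and -7.72. The 3 genotypes did not overlap. The difference was -1.71 for SAFB and -1.98 for ERH, each with an exact two-sided permutation p of 0.0022, the smallest that 6 against 6 libraries can give (adjusted p = 0.0087 over 12 ratio tests). Within batches it ran from -1.78 to -1.60 and from -2.10 to -1.84.

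ERH lay below SAFB in this ratio, with a difference of -0.27 (exact permutation p = 0.0022, adjusted p = 0.0087), and within-batch values from -0.33 to -0.24. Left without the SAFB guide 1 population the difference was -0.16 (adjusted p = 0.13), and without the ERH guide 2 population -0.18 (adjusted p = 0.10), by the same exact permutation test. In the model over all miRNAs, mir-98 fell by 0.42 (SE 0.076, adjusted p = 9.4e-05) from SAFB to ERH with TMM, and stood at -0.16 with library totals and 0.093 with spike-ins, neither called.

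let-7f was also lower relative to members outside the Huwe1 locus. The log2 ratio of let-7f to let-7a, its neighbour at the chromosome 13 locus, went from 1.18 ± 0.062 among controls to 0.61 ± 0.090 with SAFB lost and 0.62 ± 0.099 with ERH lost (SD, n = 6). The ratio of let-7f to the solitary let-7i went from 0.15 ± 0.030 to -0.46 ± 0.039 and -0.44 ± 0.037. Neither knockout overlapped the controls in either ratio. Both ratios were chosen after the values had been seen and carry no test.

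The other locus pairs tested by ratio, let-7d with let-7a and let-7b with let-7c, moved little. let-7d to let-7a had a log2 ratio of -3.14 ± 0.082 (control), -3.26 ± 0.096 (SAFB) and -3.16 ± 0.10 (ERH). Neither difference from control passed (-0.13 and -0.021, adjusted exact permutation p = 0.063 and 0.77); with permutations kept within batches, SAFB passed at an adjusted p of 0.037 and ERH against SAFB (0.11) at 0.022. let-7b to let-7c was -0.89 ± 0.037, -0.82 ± 0.045 and -0.82 ± 0.047. It was higher by 0.076 in SAFB and by 0.070 in ERH (adjusted exact permutation p = 0.026 and 0.043), with libraries that overlapped the controls. The SAFB call was lost without the control guide 1 (0.093), control guide 2 (0.059) or SAFB guide 2 (0.057) population, and the ERH call in 13 of 18 other settings. For the solitary pair, let-7g to let-7i was -3.48 ± 0.090, -3.70 ± 0.073 and -3.60 ± 0.15; the differences were -0.23 in SAFB (adjusted exact permutation p = 0.013) and -0.13 in ERH (adjusted exact permutation p = 0.13), all overlapping the controls. The SAFB difference no longer passed without the control guide 1 (-0.15) or SAFB guide 2 (-0.17) population.

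**Figure D4:**
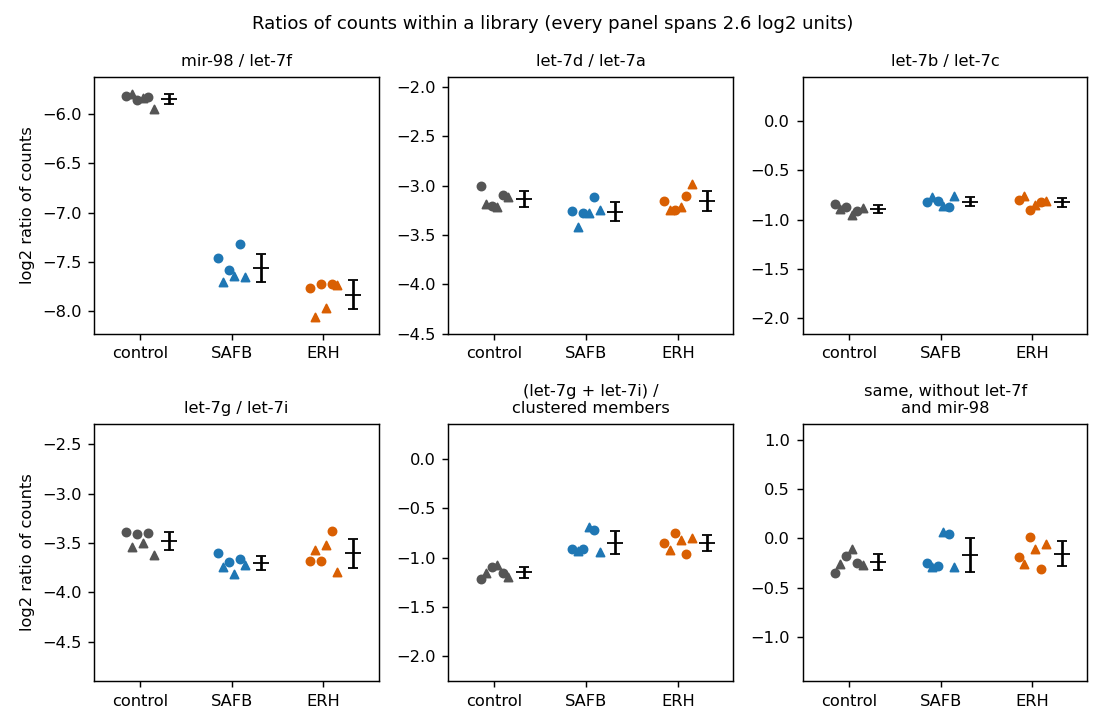
Log2 ratio of counts within each library for 6 ratios (circles for guide 1, triangles for guide 2, bars for mean ± SD, n = 6), each panel spanning the same height. The mir-98 to let-7f ratio separates the 3 genotypes, and the solitary to clustered ratio loses its separation from control once let-7f and mir-98 are left out.

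Summed let-7g and let-7i counts over the summed clustered members (let-7a, let-7b, let-7c, let-7d, let-7f and mir-98) gave a log2 ratio of -1.15 ± 0.054 for control cells, -0.85 ± 0.12 for SAFB and -0.85 ± 0.079 for ERH. let-7j, which also had no miRNA gene within 10 kb, was in neither sum. Both knockouts lay above the controls, by 0.30 each, in all 6 libraries. With let-7f and mir-98 left out of the clustered sum the differences were 0.072 and 0.085 and all groups overlapped. let-7f made up 45.9% ± 1.23 of the clustered sum in control, 37.4% ± 2.45 in SAFB and 38.0% ± 2.10 in ERH. No test was made on these sums, as the members were chosen with results known.

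ERH was set directly against SAFB. With TMM, 6 of 9 members were lower in ERH (let-7a, let-7c, let-7f, let-7i, let-7j and mir-98), beside 15.8% of all tested lower and 39.6% called. With spike-ins all 9 differences turned positive and none was called, beside 112 of all 273 tested that were called. With library totals 7 turned positive. Of these 7, let-7a, let-7d, let-7f and let-7g (0.11 to 0.22) were called higher in ERH with library totals, beside 42.1% of all tested, so the direction between the knockouts rests on the scaling. The 6 ERH libraries lay below the 6 SAFB libraries for 4 of 9 (let-7f, let-7i, let-7j and mir-98), against 6.23% of all tested. let-7j had -0.29 (SE 0.051, adjusted p = 7.6e-05), let-7i -0.18 (SE 0.049, adjusted p = 0.0049) and let-7f -0.15 (SE 0.041, adjusted p = 0.0049). Without the ERH guide 1 population only let-7i, let-7j and mir-98 were called, beside 9.52% of all tested lower, and let-7f had -0.14 (adjusted p = 0.070). The calls of let-7a and let-7c were lost with DESeq2 (adjusted p = 0.057 and 0.082), with TMM factors made without the members, and without the SAFB guide 2, ERH guide 1 or ERH guide 2 population. They were also lost without SAFB replicate 2 or ERH replicate 2 or 5, and that of let-7c without SAFB replicate 4 or ERH replicate 6. Between single guide populations let-7j was called in 4 of 4 pairs, mir-98 in 3, let-7i in 2 and let-7f in 1, while let-7a (-0.17 to -0.14) and let-7c (-0.27 to -0.16) passed in none.

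The guides of a genotype were compared as background. With TMM, log2 differences between guide 2 and guide 1 ran over the members from -0.11 to 0.044 in control, from -0.16 to 0.12 in SAFB and from -0.15 to 0.027 in ERH, and none was called. Over all 273 precursors the edgeR test called 0 in control (0%), 0 in SAFB (0%) and 1 in ERH (0.366%), with 7 (2.56%), 10 (3.66%) and 18 (6.59%) at an unadjusted p under 0.05 and none of the members among these. With spike-in scaling, 8 of 9 members were called higher in guide 2 in control, beside 35.2% of all tested called, 8 of 9 in ERH, beside 40.3%, and 0 in SAFB, beside 0%, where 8 of 273 precursors and 0 members had an unadjusted p under 0.05 in the edgeR test. The members' differences on that scaling ran from 0.54 to 0.70 in control, from 0.45 to 0.66 in ERH and from -0.22 to 0.12 in SAFB.

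A list of 8 further miRNAs was also counted. It held mir-99a and mir-100, which lie within 10 kb of a member, the related let-7e, let-7k and mir-202, and mir-99b, mir-125a and mir-125b, which lie within 10 kb of no member and do not belong to the let-7 family. Of these, mir-99a, let-7e, mir-99b, mir-125a and mir-125b were tested and all 5 were higher with TMM in each of the 3 comparisons, beside 30.8%, 26.4% and 23.8% of all tested that were higher in SAFB, in ERH and in ERH against SAFB. mir-99a, next to Mirlet7c-1, was at 1.39 ± 0.70, 16.9 ± 6.42 and 47.5 ± 10.8 CPM in control, SAFB and ERH, on 2 to 6 counts per control library. The let-7c entry did not rise. It stood at 35083 ± 1837 CPM in control and may also hold Mirlet7c-2, so a rise of that size in CPM at Mirlet7c-1 could not be seen. mir-125a was at 10.1 ± 3.95, 124 ± 42.1 and 294 ± 38.8 CPM. mir-125b was at 8.90 ± 2.22, 78.5 ± 21.6 and 193 ± 27.5 CPM. let-7e, a further let-7 miRNA, was at 83.4 ± 4.32, 116 ± 13.4 and 139 ± 9.95 CPM, above all controls in both knockouts, though with spike-ins its SAFB difference (0.24) was not called. mir-100, next to Mirlet7a-2, had at most 3 counts in any library, let-7k at most 2 and mir-202 at most 1.

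By the likeness rule (Pearson r of log2 CPM over 18 libraries, 144 candidates with a mean of at least 100 counts), mir-98 was, among these candidates, which leave out the 9 members, most like mir-15b (r = 0.988), mir-130b (r = 0.987) and mir-374b (r = 0.985). mir-15b went from 4961 ± 405 CPM in control to 612 ± 72.8 in SAFB and 516 ± 68.7 in ERH. The SAFB and ERH populations had been sorted on a miR-15a reporter, and the part of that sort in these levels was not tested. mir-130b went from 1079 ± 105 to 208 ± 11.6 and 193 ± 20.6 CPM. The summed let-7g and let-7i level was most like mir-101b (r = 0.937), mir-30e (r = 0.903) and mir-532 (r = 0.892). Such values describe 18 libraries that fall into 3 genotypes and share their depth and scaling. let-7f and mir-98 had r = 0.988 over all libraries and 0.247 once each population's mean was removed, whereas let-7b and let-7c kept 0.990 and let-7f and let-7i had 0.919.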

How the data were processed

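Small RNA libraries of 18 Baf3 samples were analysed from the read counts per miRNA precursor that the authors deposited, as whole numbers and not normalized, beside 4 spike-in RNAs that entered neither library sizes nor tests. SAMtools is named in the submitters' processing notes; aligner, build, miRNA annotation and treatment of molecular identifiers and of reads matching several precursors are not given in the sources used here. The members' entries carry no arm or copy number, so both arms and all copies of a miRNA were taken to share an entry.

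Counts were filtered with filterByExpr (minimum count 10, by population), scaled with TMM and fitted in edgeR 4.0.16 by quasi-likelihood (R 4.3.3, limma 3.58.1), 1 mean per genotype over 18 libraries, Benjamini-Hochberg over 273 precursors, called at an adjusted p under 0.05. The SE is the log2 fold change over the root of F. Ratios were compared by exact two-sided permutation over 924 arrangements. DESeq2 1.42.0 and other scalings were alternatives; fits without a library or population kept the 273 precursors. Hairpins were folded with RNAfold 2.7.2. The fit was tested on simulated data. The members, lists and rules were chosen with earlier results of these data known; all 9 members are named, with 8 further listed miRNAs and the 3 most like mir-98 or the solitary sum.

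Totals of 2699323 to 4470073 counts limit counting error only, since reads may not be independent molecules. Pairs of libraries of a population differed by more than sampling noise (chi-square per degree of freedom 33.0 to 191.7), so none was counted as a duplicate. The labels' batch number is shared across populations and pairs libraries; deviations from population means correlated by 0.028 on average within a batch (45 pairs, -0.25 to 0.32) and by -0.014 between batches (90 pairs).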

Additional observations from a re-analysis of the deposited data

Results flagged for a closer look

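Of 42 groups of 6 libraries checked (9 members and 5 ratios in 3 genotypes), 2 had a library set apart from the rest, by the gap to the nearest library as a share of the range; chance alone gives about 1 in 20. Both were let-7g in guide 2, batch 3. In control this library was at 12.43 log2 CPM, against 12.69 to 12.79 in the others, a gap of 0.717 of the range. In SAFB it was at 12.29, against 12.38 to 12.41, a gap of 0.765. let-7g stayed called in both knockouts when any single library was left out.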

How the results depend on the processing

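mir-98 and let-7f were lower and called in both knockouts under every alternative run. mir-98 lay between -2.64 and -2.20 in SAFB and between -2.89 and -2.50 in ERH. let-7f lay between -0.94 and -0.35 and between -0.86 and -0.52, where -0.35 belonged to its sum with let-7a and let-7c. Leaving out a population gave let-7f by itself -0.62 to -0.53 in SAFB. Of 603 values of members under alternatives, 502 kept direction and call, 55 lost a call, 9 gained one and 37 changed sign. The 603 include the sums of let-7f or let-7i with other entries. With batch as a block (the pairing of the labels), 6 members were called in SAFB, 9 in ERH and 7 in ERH against SAFB, beside 56.8%, 53.5% and 40.3% of all tested; let-7a was gained in SAFB (-0.11, adjusted p = 0.043) and let-7b in ERH against SAFB (-0.23, adjusted p = 0.030). For the ratio of let-7d to let-7a, permutation within batches moved the call for SAFB (-0.13) and ERH against SAFB (0.11), and the block changed no other call.

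Spike-in scaling gave 3 members called in SAFB, 2 in ERH and 0 in ERH against SAFB, beside 37.4%, 33.3% and 41% of all tested, and 16 between guides over the 3 genotypes; library totals gave 2 in ERH (51.6% of all tested), and in ERH against SAFB 4 called higher in place of 6 called lower. Why the scalings differ was not tested. With library totals the sign changed in ERH for let-7a (0.037), let-7d (0.016), let-7i (0.058) and let-7j (0.054), and in ERH against SAFB for let-7a (0.11), let-7b (0.039), let-7c (0.047), let-7d (0.22), let-7f (0.11), let-7g (0.19) and let-7i (0.085). With spike-ins it changed in SAFB for let-7j (-0.23), in ERH for let-7a (0.025), let-7d (0.0023), let-7i (0.037) and let-7j (0.032), and in ERH against SAFB for let-7a (0.40), let-7b (0.33), let-7c (0.34), let-7d (0.49), let-7f (0.40), let-7g (0.48), let-7i (0.37), let-7j (0.26) and mir-98 (0.093). TMM factors made without the members gave let-7j -0.0066 in SAFB, and summing let-7i with let-7j gave 0.0056. As a share of library totals the members took 24.1%, 20.5% and 21.8% in control, SAFB and ERH, in place of 26.1%, 21.6% and 19.2% with TMM.

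Leaving out a population, SAFB had 2 members called without control guide 1, 3 without SAFB guide 1 (let-7j among them, called higher) and 2 without SAFB guide 2, beside 44.7%, 49.8% and 43.6% of all tested. ERH had 7 without control guide 1 (46.2%; let-7b and let-7d lost) and ERH against SAFB 3 without ERH guide 1 (29.7%); fewer libraries were tested there. Signs changed in SAFB for let-7i without control guide 2 (0.0011), SAFB guide 1 (0.080) and SAFB guide 2 (0.0095), and for let-7a (0.023) and let-7b (0.062) without SAFB guide 1. Leaving out single libraries gave 3 to 5 members called in SAFB (3 without control replicate 1 or 3). It gave 9 in ERH and 4 to 7 in ERH against SAFB. With all libraries kept, 56%, 53.8% and 39.6% of all tested were called in these comparisons. Without single libraries, let-7i in SAFB ran from -0.090 to 0.019. It was above 0 without control replicates 2 (0.019), 4 (0.0035) and 5 (0.0094) and SAFB replicates 1 (0.015) and 6 (0.014).

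For the ratio of mir-98 to let-7f, ERH against SAFB lost its call without SAFB guide 1 (-0.16) or ERH guide 2 (-0.18). For let-7d to let-7a, SAFB passed without SAFB guide 1 (-0.18), ERH turned to 0.015 without control guide 1, and single libraries gave -0.16 to -0.096 (SAFB), -0.056 to 0.0064 (ERH, above 0 without control replicate 1) and 0.071 to 0.14 (ERH against SAFB); without SAFB replicate 3 SAFB (-0.16) and ERH against SAFB (0.14) passed. For let-7b to let-7c, SAFB lost its call without control guide 1 (0.093), control guide 2 (0.059) or SAFB guide 2 (0.057), and ERH without control guide 1 (0.087), control guide 2 (0.053) or ERH guide 2 (0.053) and without 10 of 12 single libraries (0.057 to 0.085 over the 12); ERH against SAFB turned to 0.012 without SAFB guide 2, 0.010 without ERH guide 1 and between -0.020 and 0.0084 without single libraries (0.0024, 0.0042 and 0.0084 without SAFB replicates 4 and 6 and ERH replicate 2). For let-7g to let-7i, SAFB lost its call without control guide 1 (-0.15) or SAFB guide 2 (-0.17), and single libraries gave -0.17 to -0.091 in ERH, passing without ERH replicate 3. The solitary to clustered difference without let-7f and mir-98 was 0.072 in SAFB and 0.085 in ERH.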
